A study of Homo sapiens with 22 samples.

Results

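Interferon response genes are the genes that cells switch on when an interferon binds its receptor, and 38 of them were followed here in human colorectal cancer cells. They were taken by gene symbol from the deposited expression tables, and all 38 were found both among the 58870 genes listed for the siRNA experiment and among the 57820 genes listed for the actinomycin D experiment. In the siRNA experiment LS180 cells, a colorectal adenocarcinoma line, received an siRNA against Staufen1 (siSTAU1, 2 libraries) or a control siRNA (siCTRL, 2 libraries), with a transfection period that the labels give as 72 h followed by a further 72 h, and polyA-selected RNA was sequenced. In the actinomycin D experiment HCT116 cells, a colorectal carcinoma line, and LS180 cells were given the transcription blocker at 5 µg/ml for 0, 2 or 4 h (3 libraries for each line and time), and total RNA was sequenced. Staufen1, encoded by STAU1, is a double-stranded RNA-binding protein that takes part in mRNA decay. No group was given an interferon or a virus in the labels. Each line is a single cultured line, and the labels do not say whether the libraries of a group came from separate cultures, so the p-values below measure the spread between these libraries, which may be technical.

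Type I and type III interferons act through receptors that start a kinase cascade, which ends with a complex of STAT proteins and IRF9 on a DNA element called the interferon-stimulated response element (ISRE). Interferon gamma acts through a related cascade on another element, the gamma-activated site (GAS). The induced proteins sense viral RNA, degrade it, block virus entry and translation, or load viral peptides onto MHC class I molecules, and many of the genes keep a basal level in epithelial cells without any added interferon. Gut epithelium is known above all for its response to type III interferon.

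The promoters of 31 of the 38 genes were in the RefSeq table used here (GRCh38.p14, 250 bases before to 50 bases after the gene start). The ISRE letters (GAAA, any 2 bases, GAAA) occurred on either strand in at least 1 window of 24 of these 31 genes (77.4%), against 1195 of the 27305 genes in the table (4.38%). The GAS letters (TTC, any 3 bases, GAA) occurred in 12 of the 31 (38.7%), against 2560 of the 27305 (9.38%). A match describes letters and not a bound site. The stretches below, each on the strand of its gene with 20 bases on either side of the match, are shown because the results for these 6 genes are given in most detail or run in opposite directions. Capitals mark the ISRE letters, overlapping matches merged, except for IRF1, where they mark the GAS letters and where no ISRE letters were found in the window. In IFIH1 and IFIT5 the ISRE letters lie on the opposite strand and read as their reverse complement.
B2M, chr15:44711353-44711408, + strand: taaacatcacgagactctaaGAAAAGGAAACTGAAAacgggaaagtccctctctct
BST2, chr19:17405725-17405780, - strand: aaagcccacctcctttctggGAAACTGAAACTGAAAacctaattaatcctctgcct
SAMD9, chr7:93118086-93118135, - strand: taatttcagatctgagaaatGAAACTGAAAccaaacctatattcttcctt
IFIH1, chr2:162318808-162318863, - strand: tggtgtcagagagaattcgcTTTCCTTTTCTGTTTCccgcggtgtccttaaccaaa
IFIT5, chr10:89414503-89414552, + strand: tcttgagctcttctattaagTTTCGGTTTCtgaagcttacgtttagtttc
IRF1, chr5:132490869-132490917, - strand: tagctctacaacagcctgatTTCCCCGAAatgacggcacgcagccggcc

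Sequencing depth was 23730047 to 26658699 counts a library in the siRNA experiment and 47842278 to 61417810 counts in the actinomycin D experiment. STAU1 itself averaged 9.43 ± 0.375 CPM (counts scaled to library size) in siSTAU1 libraries and 142.6 ± 2.44 CPM in siCTRL libraries (SD, n = 2 each), which is 6.62% of the siCTRL level. All 7 colon epithelium markers looked for were detected in both lines, although VIL1 averaged 0.05 CPM in HCT116 cells and 182 CPM in LS180 cells at 0 h. Of 7 immune markers, the T cell marker CD3E was the only 1 at 0 in HCT116 and in LS180 cells at 0 h. The 7 summed to 0.945 to 1.74 CPM in HCT116 and 48.8 to 59.8 CPM in LS180 cells at 0 h. CD3E was at 0 in the siRNA libraries too, where the 7 summed to 243 to 251 CPM in siCTRL and 110 to 111 CPM in siSTAU1. The interferon genes IFNA1, IFNB1, IFNL1, IFNL2 and IFNL3 had 0 counts in all 4 siRNA libraries, which allows up to 0.0594 CPM in siSTAU1 and 0.0595 CPM in siCTRL cells (3 counts over each group, counting error only). In the actinomycin D experiment none of these 5 genes exceeded 2 counts summed over a group.

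Levels of different genes were set side by side as TPM, transcript levels scaled for length and depth. B2M, the light chain of MHC class I, was the most abundant of the 38 genes in every untreated or control group, at 183 ± 31.5 TPM in HCT116 cells and 261 ± 28.7 TPM in LS180 cells at 0 h (SD, n = 3 each) and 876 ± 8.13 TPM in siCTRL cells (SD, n = 2). IFITM3, a membrane protein that blocks virus fusion, came next in each of these groups, at 50.2 ± 2.60 TPM in HCT116 cells, 78.7 ± 8.49 TPM in LS180 cells and 491 ± 26.4 TPM in siCTRL cells. At the low end, IFIT2 stood at 0.243 ± 0.0513 TPM in HCT116 cells, 0.143 ± 0.0379 TPM in LS180 cells and 0.215 ± 0.0212 TPM in siCTRL cells. The siRNA and actinomycin D libraries differ in RNA selection and genome build, so no level was compared between the experiments.

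The first comparison asks what the interferon response genes did when Staufen1 was depleted from LS180 cells. OAS1, OAS2 and OAS3 of the 2-5A system, the exonuclease gene ISG20, the ubiquitin-like modifier gene ISG15, IFI27 and, of the MHC class I genes, B2M, TAP1 and PSMB9 were higher in siSTAU1 cells, by about 1.5-fold for OAS1, ISG15, IFI27 and B2M. The dsRNA sensor gene IFIH1 and the transcription factor gene IRF1 were lower, and none of the 4 IFIT genes was called. Of the 36 genes with enough counts to be tested (MX2 and IFI44L were not), 13 were higher, 2 were lower and 21 were not called by edgeR's quasi-likelihood test at a Benjamini-Hochberg adjusted p under 0.05. DESeq2 called 7 higher and 0 lower, and without siCTRL library 2 the counts were 8 and 1, so the smaller changes below depend on the test or on that library. Without siCTRL library 1, 0 genes were called lower. Over all 14073 genes tested 46.1% were called, 23.0% higher and 23.0% lower, so the share of the 36 genes called in either direction (41.7%) was near the background. Their median log2 fold change was 0.13, against 0.00 over all genes tested. Because these are bulk RNA libraries, less RNA per cell and fewer cells of a kind cannot be told apart.

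Among the genes of the 2-5A system, whose OAS enzymes make the small messenger that activates RNase L, OAS1 had 62.9 and 63.7 CPM in siSTAU1 libraries, against 40.8 and 40.3 CPM in siCTRL libraries. The groups did not overlap, and OAS1 rose by 0.64 ± 0.05 on the log2 scale (SE, adjusted p = 3.9e-06). OAS3 had 73.2 and 71.0 CPM in siSTAU1 libraries, against 60.1 and 59.8 CPM in siCTRL libraries, a smaller rise of 0.27 ± 0.05 (adjusted p = 0.00080). OAS2 was scarce, with 0.762 and 1.25 CPM in siSTAU1 libraries against 0.185 and 0.209 CPM in siCTRL libraries, a log2 difference of 2.33 ± 0.49 (adjusted p = 0.0022) that rests on few reads. ISG20, an exonuclease that degrades single-stranded RNA, rose by 0.81 ± 0.18 (adjusted p = 0.0034), with 3.81 and 4.504 CPM in siSTAU1 libraries against 2.40 and 2.34 CPM in siCTRL libraries. OASL, a family member that lacks the synthase activity, was the exception: its libraries overlapped, with 2.25 and 3.34 CPM in siSTAU1 against 2.99 and 2.80 CPM in siCTRL (log2 fold change -0.05 ± 0.22).

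ISG15, which is attached to other proteins much as ubiquitin is, had 61.6 and 69.1 CPM in siSTAU1 libraries, against 41.5 and 43.3 CPM in siCTRL libraries. Both siSTAU1 libraries lay above both siCTRL libraries, and the rise was 0.62 ± 0.07 (adjusted p = 1.7e-05). USP18, the protease that removes ISG15, and HERC6, of the HECT ubiquitin ligase family, were not called (0.10 and -0.09). IFI27, a small protein of the mitochondrial membrane, had 45.6 and 49.9 CPM in siSTAU1 libraries, against 29.8 and 31.0 CPM in siCTRL libraries, a rise of 0.65 ± 0.07 (adjusted p = 1.5e-05). The other IFI genes tested were not called: IFI44 had a log2 fold change of 0.55, IFI35 of 0.15 and IFI6 of -0.03.

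In antigen presentation, B2M had 489 and 509 CPM in siSTAU1 libraries, against 328 and 327 CPM in siCTRL libraries, and rose by 0.61 ± 0.04 (adjusted p = 2.2e-07). TAP1, a subunit of the transporter that brings peptides into the endoplasmic reticulum, rose by 0.22 ± 0.04 (adjusted p = 0.0016), with 88.4 and 92.7 CPM in siSTAU1 libraries against 76.3 and 79.0 CPM in siCTRL libraries. PSMB9, a catalytic subunit of the immunoproteasome, had 9.02 and 9.61 CPM in siSTAU1 libraries against 7.61 and 7.14 CPM in siCTRL libraries (0.34 ± 0.11, adjusted p = 0.023). Its call was lost in 5 of 9 alternatives. Its partner subunit PSMB8 was not called (0.13 ± 0.05, adjusted p = 0.075), although its siSTAU1 libraries (65.7 and 71.2 CPM) lay above its siCTRL libraries (61.4 and 63.9 CPM). PSMB8, PSMB9 and TAP1 are neighbours on chromosome 6 whose transcripts overlap on opposite strands in part, and how strand entered the counting is not given in the sources used here, so the split between them is uncertain.

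Among the regulators, IRF7, the factor that amplifies type I interferon expression, had 12.3 and 12.8 CPM in siSTAU1 libraries, against 9.97 and 9.94 CPM in siCTRL libraries (0.33 ± 0.09, adjusted p = 0.0091). IRF1, which the interferon gamma cascade induces, had 7.42 and 6.23 CPM in siSTAU1 libraries, against 9.27 and 8.77 CPM in siCTRL libraries (-0.40 ± 0.12, adjusted p = 0.015). IFIH1, which encodes the dsRNA sensor MDA5, had 5.05 and 4.62 CPM in siSTAU1 libraries, against 7.05 and 6.81 CPM in siCTRL libraries (-0.52 ± 0.13, adjusted p = 0.0056). By these values IRF7 was higher and IRF1 and IFIH1 were lower in siSTAU1. STAT2 and IRF9, the partners in the ISRE-binding complex, had log2 fold changes of -0.06 and 0.09 and were not called. IRF1 lost its call in 5 of 9 alternatives, and IFIH1 and IRF7 lost theirs in 3 of 9 each. Among these was the fit that took in the change of effective transcript length, for IRF1 (-0.39, adjusted p = 0.239, range over its alternatives 0.0034 to 0.239). The same fit gave -0.40 for IFIH1 (adjusted p = 0.115, range 0.0047 to 0.115).

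Of the ADP-ribosylation genes, PARP9 had 35.2 and 34.9 CPM in siSTAU1 libraries, against 30.3 and 31.0 CPM in siCTRL libraries (0.20 ± 0.06, adjusted p = 0.022). The PARP9 call was lost in 5 of 9 alternatives. DTX3L, the ubiquitin ligase that pairs with PARP9 and whose gene overlaps it on the opposite strand (so that their split is uncertain), reached 0.13 ± 0.05 at an adjusted p of 0.04996, just inside the threshold, and lost its call in 7 of 9 alternatives. PARP14 was not called (57.8 and 52.8 CPM in siSTAU1, 59.6 and 60.0 CPM in siCTRL, -0.11). TRIM21, a ubiquitin ligase that binds antibody on viruses inside the cell, was the only 1 of 7 restriction factors to be called. It had 20.4 and 21.2 CPM in siSTAU1 libraries against 18.6 and 16.2 CPM in siCTRL libraries (0.26 ± 0.08, adjusted p = 0.024). The TRIM21 call was lost in 5 of 9 alternatives. BST2 (0.40, adjusted p = 0.12) and IFITM2 (0.42, adjusted p = 0.078) were not called, and MX1, IFITM1, IFITM3 and SAMD9 lay between -0.13 and 0.05.

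The IFIT genes encode RNA-binding proteins that hold back the translation of viral RNA. IFIT5, the most abundant of them, had 17.7 and 17.5 CPM in siSTAU1 libraries, against 17.1 and 18.5 CPM in siCTRL libraries, and the groups overlapped (-0.02 ± 0.08). IFIT1 had -0.55 ± 0.42 (adjusted p = 0.30), IFIT3 had -0.41 ± 0.40 (adjusted p = 0.42) and IFIT2 had 0.24 ± 0.46. The count of IFIT genes called was 0 of 4 by edgeR's quasi-likelihood test, 0 of 4 at an unadjusted p under 0.05 and 0 of 4 by DESeq2. The standard errors of IFIT1, IFIT2 and IFIT3, the scarce members of the family, were larger than that of IFIT5.

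**Figure D1:**
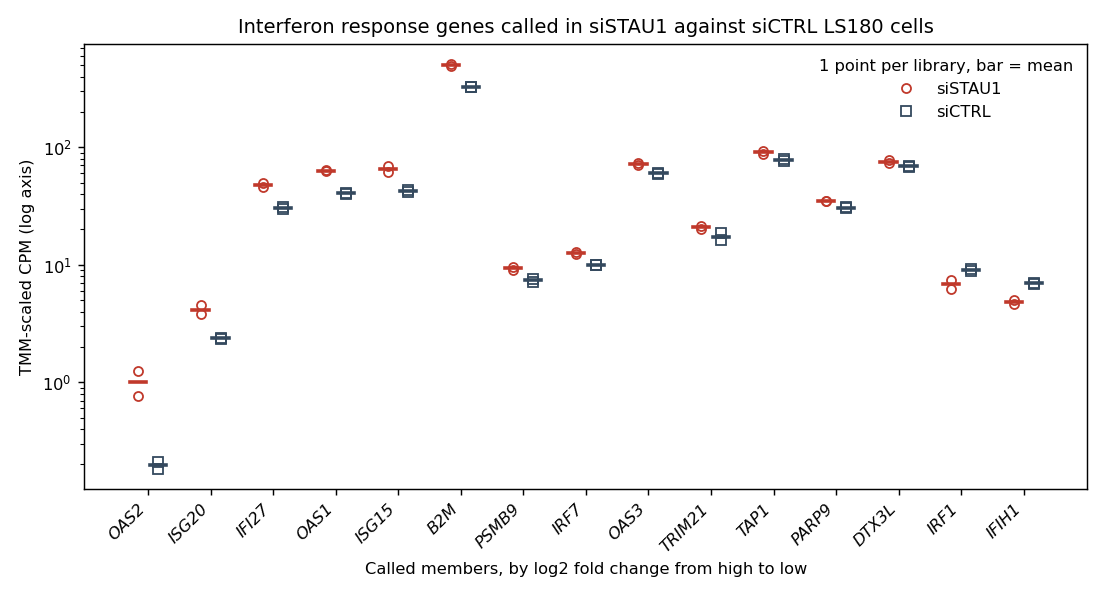
Level of the interferon response genes called in siSTAU1 against siCTRL LS180 cells, in CPM on a logarithmic axis. Genes run by log2 fold change from high to low, with a point for each library (n = 2 libraries each) and a bar at the mean. For OAS1, ISG15, IFI27 and B2M both siSTAU1 points lie above both siCTRL points. The 4 IFIT genes were not called and are not shown.

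The calls that held under every alternative processing that gave an adjusted p were those of OAS1, OAS2, OAS3, ISG15, ISG20, IFI27 and B2M, 7 of the 15. Summed over the 38 genes, the level was 1460 to 1498 CPM in siSTAU1 libraries and 1184 to 1198 CPM in siCTRL libraries. The largest part of that sum was B2M, which averaged 499 CPM in siSTAU1 and 327 CPM in siCTRL. Among markers of other cell types, the summed level of 5 fibroblast markers was 15.3 to 16.8 CPM in siSTAU1 and 4.72 to 5.13 CPM in siCTRL, with none of the 5 at 0 in either group, and that of 7 immune markers was 110 to 111 CPM in siSTAU1 and 243 to 251 CPM in siCTRL. Most of the immune sum was LYZ, which averaged 91.0 CPM in siSTAU1 and 227 CPM in siCTRL, while the leukocyte marker PTPRC was at 0 in siSTAU1 and CD3E at 0 in both. The part of these markers in the results was not tested.

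Of 30 other pathway genes (interferons, receptors, kinases, sensors and their adaptors, and feedback genes), 22 were tested. Of these, 2 were higher, 8 were lower and 12 were not called in siSTAU1, with a median of -0.12. The share called (45.5%) was near that over all genes tested (46.1%, with 23.0% higher and 23.0% lower). The receptor subunits IL10RB and IFNGR2, which serve type III interferon and interferon gamma, rose by 0.47 ± 0.08 (adjusted p = 0.00054) and 0.24 ± 0.06 (adjusted p = 0.0082). The other receptor genes, IFNAR1 (-0.09), IFNAR2 (-0.17), IFNGR1 (0.11) and IFNLR1 (-0.22), were not called. MAVS, the mitochondrial adaptor through which MDA5 signals, fell by 0.42 ± 0.05 (adjusted p = 3.8e-05), and ADAR, which edits dsRNA, fell by 0.25 ± 0.04 (adjusted p = 0.00073).

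The second comparison sets the basal levels of HCT116 cells against those of LS180 cells, both at 0 h of actinomycin D. HCT116 cells lacked or nearly lacked several of the genes that LS180 cells expressed, among them OAS1, OAS2, PSMB8, IFITM1, BST2 and MX1, while all 4 IFIT genes, IFIH1, OASL, ISG15 and above all SAMD9 were higher in HCT116. Of 36 genes tested, 10 were higher and 21 lower in HCT116, and 5 were not called. Over all 17256 genes tested 76.3% were called, 33.7% higher and 42.6% lower, so a call by itself is no rarity between the lines. The median log2 fold change of the 36 was -0.62, against -0.10 over all genes tested. In HCT116 cells 28 of the 38 genes averaged at least 1 CPM, against 35 of 38 in LS180 cells, and the 38 genes summed to 682 to 723 CPM in HCT116 against 1125 to 1148 CPM in LS180.

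PSMB8 had 0.150, 0.1605 and 0.158 CPM in HCT116 libraries, against 70.9, 69.9 and 70.4 CPM in LS180 libraries. OAS1 had 0.150, 0.232 and 0.079 CPM in HCT116 libraries, against 32.9, 36.3 and 38.02 CPM in LS180 libraries. IFITM1, which acts at the cell surface, had 0.090, 0.071 and 0.118 CPM in HCT116 libraries, against 43.8, 41.9 and 39.7 CPM in LS180 libraries. These 3 genes were 227-fold (OAS1), 443-fold (IFITM1) and 446-fold (PSMB8) lower in HCT116, without overlap, with log2 fold changes of -8.80 ± 0.15 for PSMB8 (adjusted p = 3.4e-19), -7.82 ± 0.17 for OAS1 (adjusted p = 7.4e-18) and -8.79 ± 0.19 for IFITM1 (adjusted p = 4.0e-18). The HCT116 values rest on 27, 27 and 16 counts over the 3 libraries. OAS2 had 0 counts in HCT116 and 50 in LS180, which makes it at least 17.75-fold lower in HCT116 (against 3 counts over the group), and MX2, which entered no test, had 0 and 11 counts. IFI44L had 0 counts in both lines.

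Other genes were low but present in HCT116 cells. BST2, the tetherin that holds budding viruses on the cell, had 0.314, 0.196 and 0.296 CPM in HCT116 libraries, against 11.04, 12.6 and 10.7 CPM in LS180 libraries. MX1, a dynamin-like GTPase that traps viral nucleocapsids, had 0.195, 0.285 and 0.237 CPM in HCT116, against 4.74, 5.40 and 4.78 CPM in LS180, and IFI27 had 0.554, 0.214 and 0.197 CPM in HCT116, against 4.13, 3.50 and 3.84 CPM in LS180. Each of these was lower in all 3 HCT116 libraries, with log2 fold changes of -5.39 for BST2, -4.38 for MX1, -3.50 for IFI27 and, likewise, -3.89 for IFI44. PSMB9 was at 1.53, 1.44 and 1.58 CPM in HCT116 against 11.02, 10.7 and 10.4 CPM in LS180 (-2.82). All 4 antigen presentation genes and all 3 ADP-ribosylation genes were lower in HCT116: TAP1 by a log2 fold change of -0.66, B2M of -0.58 ± 0.08 (adjusted p = 4.7e-06), PARP14 of -1.66, PARP9 of -1.45 and DTX3L of -1.26. The remaining lower genes were IRF7 (-1.73), USP18 (-1.22), DDX60, a helicase that aids RNA sensing (-1.19), HERC6 (-0.90), IFITM3 (-0.70), STAT2 (-0.48) and TRIM21 (-0.43). The calls of STAT2 and TRIM21 were lost with scaling to ribosomal protein genes (-0.20 and -0.15).

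In the opposite direction, SAMD9, a cytosolic factor that restricts poxviruses, had 32.2, 32.0 and 29.5 CPM in HCT116 libraries, against 1.98, 1.86 and 1.99 CPM in LS180 libraries. This 16-fold difference (log2 4.00 ± 0.08, adjusted p = 2.1e-18) exceeded that of every other gene higher in HCT116. OASL had 5.54, 4.42 and 4.69 CPM in HCT116 libraries, against 0.840, 1.53 and 1.15 CPM in LS180 libraries (2.06 ± 0.17, adjusted p = 3.0e-09), so that OASL and OAS1 of the same family stood in opposite order in the lines. IFIH1 had 19.2, 20.8 and 18.8 CPM in HCT116, against 9.51, 8.70 and 9.84 CPM in LS180 (1.07 ± 0.08, adjusted p = 7.5e-10). The 4 IFIT genes, clustered on chromosome 10, were all higher in HCT116: IFIT1 by a log2 fold change of 1.12, IFIT5 of 0.82 ± 0.07 (adjusted p = 1.4e-09), IFIT2 of 0.70 and IFIT3 of 0.66. ISG15 (0.48 ± 0.06, adjusted p = 3.8e-07) and IRF1 (0.57 ± 0.08) were also higher in HCT116, without overlap between the lines. IFITM2 was called higher (0.23) but turned to -0.84 with an offset for effective length, and it shares reads with IFITM1 and IFITM3, so its direction is uncertain. OAS3 (0.02 ± 0.09), IRF9 (-0.10), IFI35 (0.07), IFI6 (-0.16) and ISG20 (-0.42, adjusted p = 0.052) were not called.

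**Figure D2:**
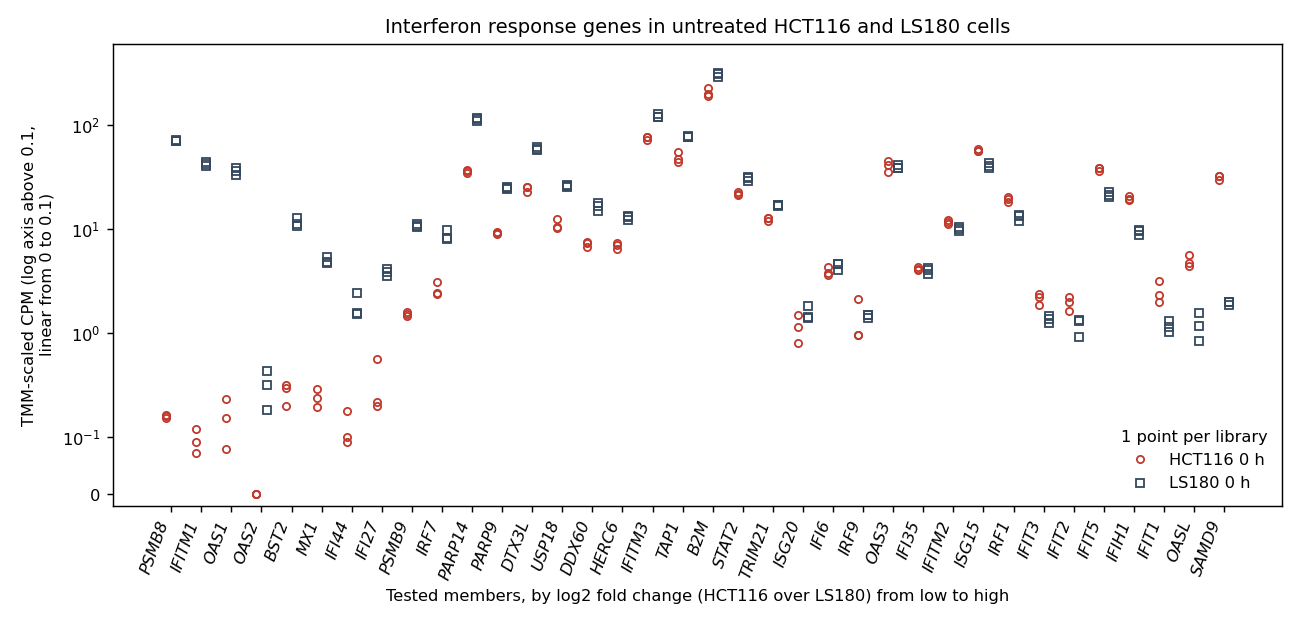
Level of the interferon response genes at 0 h in HCT116 and LS180 cells, in CPM on an axis that is logarithmic above 0.1 CPM and linear below it, with a point for each library (n = 3 a line). PSMB8, OAS1 and IFITM1 lie below 0.3 CPM in HCT116 and above 30 CPM in LS180, whereas SAMD9 lies near 30 CPM in HCT116 and near 2 CPM in LS180.

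Of the 31 calls between the lines, 28 held in all alternatives, the exceptions being IFITM2, STAT2 and TRIM21. The HCT116 libraries numbered 1 stood apart from the other HCT116 libraries, and without them 10 genes were higher and 24 lower in HCT116. The 7 immune markers summed to 0.945 to 1.74 CPM in HCT116 and 48.8 to 59.8 CPM in LS180, where LYZ made up most of the sum and CD3E was at 0, and their part in the result was not tested. Among the other pathway genes, 7 of 25 tested were higher and 16 lower in HCT116, with a median of -0.40. The share called was 92%, against 76.3% over all genes tested (33.7% higher and 42.6% lower). Of the 6 receptor genes 5 were lower in HCT116: IFNAR1 by a log2 fold change of -0.65, IFNGR1 of -0.58, IL10RB of -0.55, IFNLR1 of -0.52 and IFNAR2 of -0.50. IFNGR2 was not called (0.11, adjusted p = 0.21). TMEM173, which encodes the DNA-sensing adaptor STING, had a log2 fold change of -2.06, and the repressor gene IRF2 of -2.13.

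The third set of comparisons follows the transcripts after actinomycin D had stopped new transcription, so that each gene's CPM shows how its mRNA held up relative to the other transcripts left, not how much of it remained in a cell. IRF1 fell fastest and furthest in both lines. IFIT5, OASL and TRIM21 fell in both lines by 4 h. IFIT2, IRF9 and IFIT3 fell in LS180. In HCT116 the calls of IFIT2 and IRF9 depended on single libraries and on the test, while IFIT3 was not called. Each of these 2 calls was lost in 7 of 15 alternatives, DESeq2 among them. B2M, STAT2, IFI6, IFITM3 and most other called genes were higher at 2 or 4 h with counts scaled by TMM, but nearly all of these calls were lost, and many values turned below 0, with counts scaled to ribosomal protein genes. Of 36 genes tested in HCT116, 6 were higher and 2 lower at 2 h (background over all genes 31.0% called, 13.8% higher and 17.1% lower), and 13 were higher and 6 lower at 4 h (background 49.9%, 26.2% higher and 23.7% lower). In LS180, 11 were higher and 7 lower at 2 h (background 37.4%, 13.5% higher and 23.9% lower), and 18 were higher and 9 lower at 4 h (background 57.7%, 26.6% higher and 31.1% lower). The medians of the 36 genes were 0.10 at both times in HCT116, against 0.01 and 0.02 over all genes, and 0.17 at 2 h and 0.18 at 4 h in LS180, against -0.02 and 0.00 over all genes.

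IRF1 in HCT116 had 18.02, 19.16 and 20.35 CPM at 0 h, 4.25, 4.67 and 4.71 CPM at 2 h and 2.33, 2.16 and 2.03 CPM at 4 h. In LS180 it had 11.97, 13.42 and 13.30 CPM at 0 h, 2.07, 1.85 and 1.97 CPM at 2 h and 1.39, 1.80 and 1.83 CPM at 4 h. No library at 2 or 4 h overlapped with 0 h. The log2 fold changes against 0 h were -2.08 ± 0.09 at 2 h and -3.14 ± 0.10 at 4 h (adjusted p = 1.7e-14) in HCT116, and -2.71 ± 0.10 at 2 h (adjusted p = 1.3e-13) and -2.95 ± 0.10 at 4 h (adjusted p = 2.6e-14) in LS180. By 4 h 11.4% of the 0 h level was left in HCT116 and 12.9% in LS180. Among the other transcription factors, IRF9 fell by 1.65 ± 0.35 in LS180 at 4 h (adjusted p = 0.00046), with 0.534, 0.383 and 0.457 CPM at 4 h, against 1.47, 1.38 and 1.49 CPM at 0 h. In HCT116 the call of IRF9 (-0.79 ± 0.32, adjusted p = 0.047) rested on a single library of 2.11 CPM at 0 h, beside 0.945 and 0.947 CPM, and without that library the change was -0.27 (adjusted p = 0.487, range over its alternatives 0.0015 to 0.487). STAT2 was higher at 4 h, by 0.45 in HCT116 and 0.41 in LS180, but with scaling to ribosomal protein genes its sign turned in LS180 (-0.14).

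IFIT5 in HCT116 had 38.6, 38.03 and 35.97 CPM at 0 h, 28.8, 27.0 and 27.9 CPM at 2 h and 23.7, 19.8 and 21.0 CPM at 4 h. In LS180 it had 20.03, 21.2 and 22.4 CPM at 0 h, 12.4, 12.03 and 12.1 CPM at 2 h and 7.49, 6.74 and 7.27 CPM at 4 h. The libraries of successive times did not overlap in either line. By 4 h IFIT5 had fallen by 0.80 ± 0.07 in HCT116 (adjusted p = 8.7e-09) and by 1.56 ± 0.07 in LS180 (adjusted p = 1.1e-12). IFIT3 libraries overlapped in HCT116, with 2.19, 1.64 and 1.64 CPM at 4 h, against 2.20, 1.85 and 2.37 CPM at 0 h (-0.23 ± 0.19, adjusted p = 0.35). In LS180 IFIT3 had 1.25, 1.36 and 1.45 CPM at 0 h, 0.85, 0.598 and 0.945 CPM at 2 h and 0.438, 0.464 and 0.784 CPM at 4 h, a fall of 1.28 ± 0.23 at 4 h (adjusted p = 0.00011). IFIT2 fell by 0.55 ± 0.21 in HCT116 (adjusted p = 0.037, a call lost in 7 of 15 alternatives) and by 1.26 ± 0.25 in LS180 (adjusted p = 0.00028), and IFIT1 was not called in LS180 at 4 h (-0.43, adjusted p = 0.23).

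TRIM21 in HCT116 had 12.8, 12.6 and 11.95 CPM at 0 h, 11.6, 12.4 and 11.6 CPM at 2 h and 10.7, 9.41 and 9.93 CPM at 4 h. In LS180 it had 16.6, 16.8 and 16.9 CPM at 0 h, 13.8, 13.5 and 12.3 CPM at 2 h and 8.48, 7.36 and 6.64 CPM at 4 h. At 4 h 80.2% of its 0 h level was left in HCT116 (-0.32 ± 0.08, adjusted p = 0.0024) and 44.8% in LS180 (-1.16 ± 0.08, adjusted p = 4.0e-10), with no overlap between 4 h and 0 h libraries in either line. OASL fell by 0.68 ± 0.16 in HCT116 at 4 h (adjusted p = 0.0014), with 3.39, 3.03 and 2.75 CPM at 4 h, against 5.54, 4.42 and 4.69 CPM at 0 h. In LS180 OASL fell by 1.32 ± 0.22 (adjusted p = 5.3e-05), with 0.476, 0.424 and 0.501 CPM at 4 h, against 0.840, 1.53 and 1.15 CPM at 0 h. MX1 fell in LS180 by 0.59 (adjusted p = 0.00078) and USP18 by 0.36 (adjusted p = 0.0034) at 4 h, and both calls held in 14 of 15 alternatives. At 2 h MX1 (-0.42), TRIM21 (-0.35), IRF9 (-1.04), IFIT3 (-0.75), OASL (-0.84) and IFIT5 (-0.80) were already lower in LS180, and in HCT116 IFIT5 was (-0.43).

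**Figure D3:**
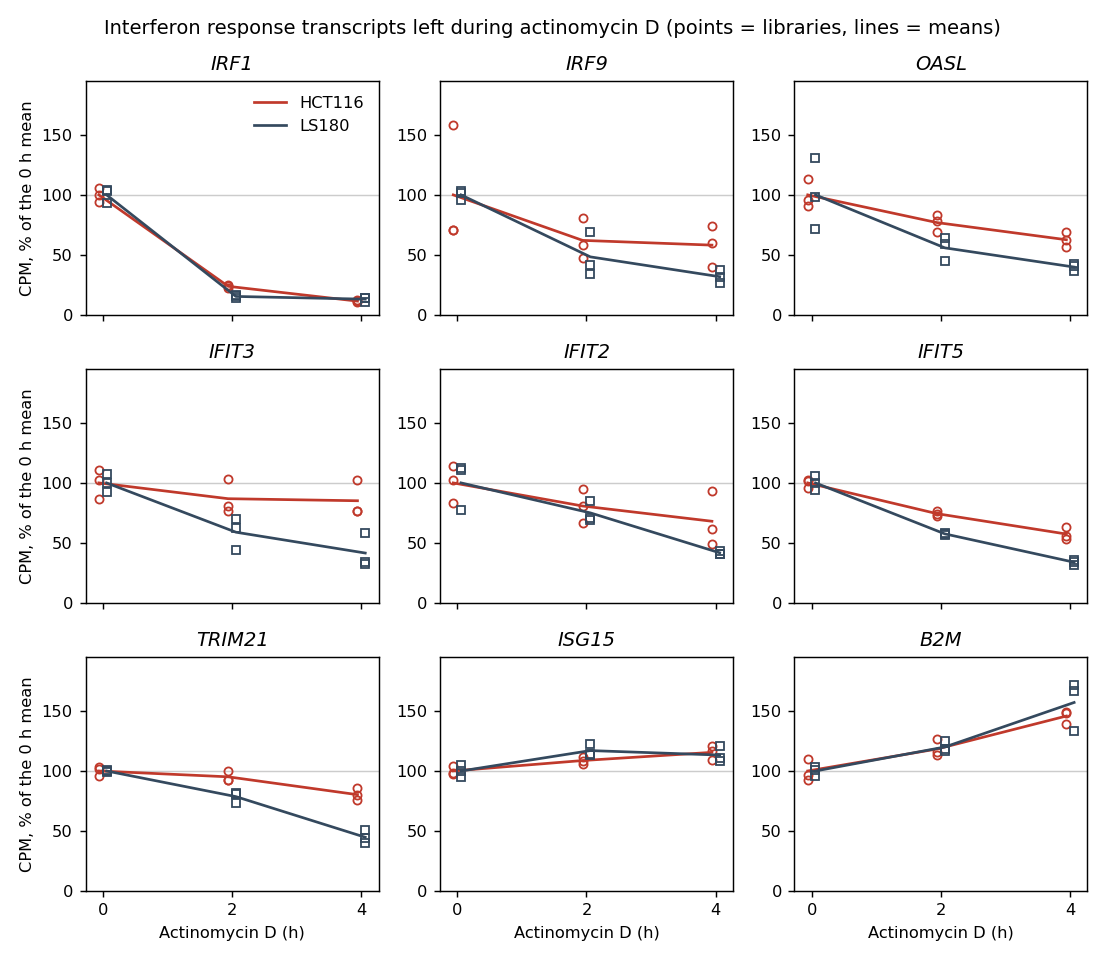
Level of selected interferon response genes at 0, 2 and 4 h of actinomycin D in HCT116 and LS180 cells, as percent of the line's own 0 h mean CPM, with a point for each library (n = 3 a time) and a line through the means. IRF1 drops to 11.4% in HCT116 and 12.9% in LS180 by 4 h, TRIM21 to 80.2% in HCT116 and 44.8% in LS180, and B2M lies above its 0 h mean.

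B2M in HCT116 had 224, 196 and 188 CPM at 0 h, 256, 234 and 230 CPM at 2 h and 283, 301 and 303 CPM at 4 h. In LS180 it had 306, 288 and 313 CPM at 0 h, 378, 358 and 352 CPM at 2 h and 403, 504 and 518 CPM at 4 h. Neither line's 4 h libraries overlapped with its 0 h libraries, and B2M was higher at 4 h by 0.54 ± 0.08 in HCT116 (adjusted p = 2.7e-05) and by 0.65 ± 0.08 in LS180 (adjusted p = 2.0e-06). In HCT116 the genes called higher at 4 h that averaged at least 1 CPM lay between 0.20 (PARP14) and 0.54 (B2M) and included ISG15 (0.21), PARP9 (0.23), OAS3 (0.24), TAP1 (0.25), HERC6 (0.25), IFI35 (0.37), IFITM2 (0.39), IFITM3 (0.40) and IFI6 (0.47). The other genes called higher at 4 h in LS180 lay between 0.18 (ISG15) and 0.61 (IFI6) and included PSMB8 (0.36), PSMB9 (0.29), TAP1 (0.27), IFITM1 (0.43), IFITM2 (0.54), IFITM3 (0.48), BST2 (0.54), IFI27 (0.59), IFI44 (0.57), SAMD9 (0.31), HERC6 (0.39), OAS3 (0.30), PARP9 (0.23) and PARP14 (0.36). At 2 h the genes called higher in HCT116 at 1 CPM or more were IFI6 (0.34), IFITM3 (0.25), IFITM2 (0.25), B2M (0.24) and PARP14 (0.15). In LS180 at 2 h they were BST2 (0.36), PARP14 (0.32), IFI6 (0.31), IFITM3 (0.27), SAMD9 (0.27), B2M (0.26), IFITM1 (0.25), STAT2 (0.25), PARP9 (0.23), ISG15 (0.23) and TAP1 (0.21). These higher values depend on the scale: with counts scaled to ribosomal protein genes, the median of all genes moved to -0.33 in HCT116 and -0.54 in LS180 at 4 h, and 1 of 36 genes was called higher in HCT116 (B2M, at 0.15) and 0 of 36 in LS180. At 2 h 0 of 36 genes was called higher on that scale in either line, by edgeR. The falls of IRF1, IFIT5 and TRIM21 at 4 h were called on that scale too, in both lines. Because that scale lowered every gene by a shared amount, keeping these falls was no separate check of them.

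The LS180 4 h library numbered 1 stood apart from the other LS180 4 h libraries in its summed level of the 38 genes (1332 CPM, against 1487 and 1517 CPM). B2M, the largest part of the sum, ranged from 403 to 518 CPM over the LS180 4 h libraries. Without the library numbered 1 all 27 calls at 4 h were still made, with 20 genes higher and 9 lower. With it as the only LS180 4 h library, the spread being taken from the other groups, 15 genes were higher and 7 lower. The calls lost with that single library were those of MX1 (-0.44), USP18 (-0.11), BST2 (0.35), IFI27 (0.47), IFI44 (0.25) and PSMB9 (0.27). In HCT116 the data set the libraries numbered 1 apart, and pairing of the others by number is not settled. A replicate block by number gave 10 genes higher and 4 lower at 2 h in HCT116. It added OAS3, STAT2, DTX3L and TAP1 to the higher genes and OASL (-0.38, adjusted p = 0.032) and IRF9 (-0.66, adjusted p = 0.019) to the lower ones, and at 4 h it added SAMD9 (0.14, adjusted p = 0.038) to the higher genes. Without the HCT116 libraries numbered 1, HCT116 had 6 higher and 2 lower at 2 h and 12 higher and 5 lower at 4 h.

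The last comparison asks whether the 4 h change differed between the lines, as HCT116 minus LS180. TRIM21, IFIT5 and IFIT3 fell less in HCT116 than in LS180, and of 36 genes tested by edgeR's quasi-likelihood test these 3 were called higher and 0 lower (background over all genes 13.7%, 12.3% higher and 1.33% lower). At an unadjusted p under 0.05, 1 gene was lower, PARP14 (-0.16), and DESeq2 called 1 of the ADP-ribosylation genes lower. The count of lower genes depended on the processing. Leaving out the LS180 4 h library numbered 1 gave 2 genes higher and 8 lower. The median over all genes tested then moved to -0.092. That median was also below 0 without HCT116 4 h library 1, 2 or 3 (-0.100, -0.105 and -0.102). It was -0.075 with no filter and -0.029 with RLE or DESeq2. The sign of the median over all genes thus depended on the scaling and on the libraries used. The difference of log2 changes was 0.84 ± 0.11 for TRIM21 (adjusted p = 3.6e-05), 0.76 ± 0.10 for IFIT5 (adjusted p = 2.4e-05) and 1.05 ± 0.30 for IFIT3 (adjusted p = 0.025). The calls of TRIM21 and IFIT5 held in all 21 alternatives, with adjusted p up to 0.0133 and 0.0109. That of IFIT3 was lost in 9 of the 21, with adjusted p between 0.0048 and 0.125, among them without the HCT116 libraries numbered 1 (0.92, adjusted p = 0.063) and without the LS180 4 h library numbered 1 (0.74, adjusted p = 0.098). OASL (0.64, adjusted p = 0.16), IFIT2 (0.71, adjusted p = 0.20), MX1 (0.69, adjusted p = 0.17) and IRF9 (0.86, adjusted p = 0.31) had differences of similar size but were not called. IRF1 differed by -0.19 ± 0.14 (adjusted p = 0.51). The median of the 36 genes was 0.01, against 0.06 over all genes tested.

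**Figure D4:**
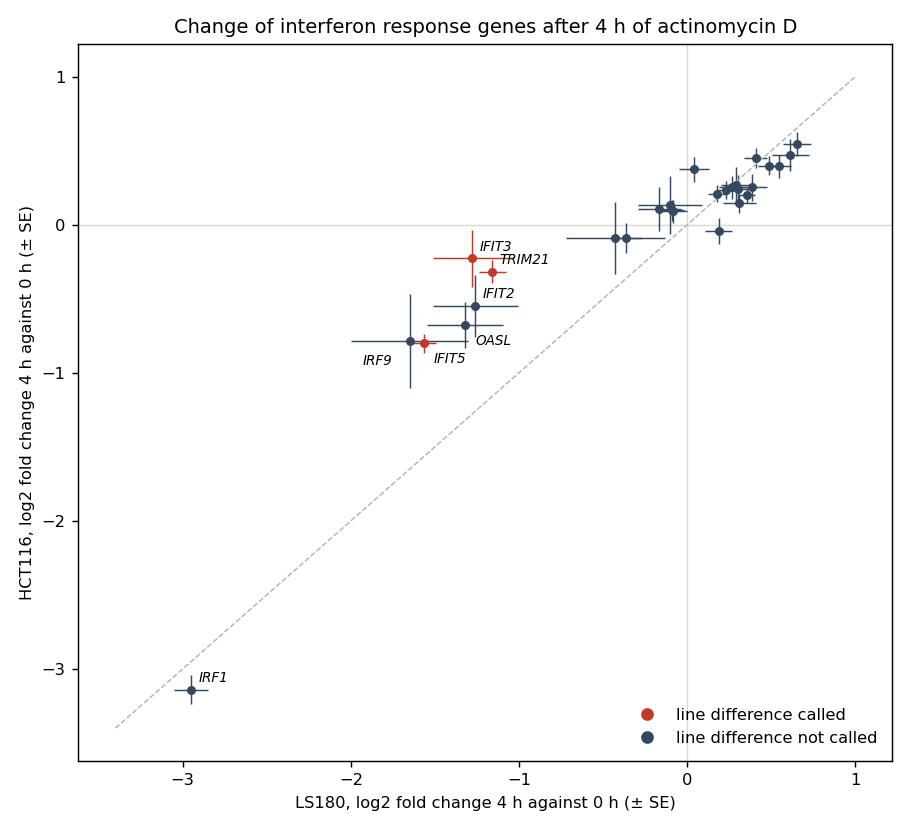
Log2 fold change of each interferon response gene at 4 h of actinomycin D against 0 h, with SE (n = 3 libraries a time), in HCT116 (vertical axis) against LS180 (horizontal axis), for the 28 genes averaging at least 1 CPM in both lines at 0 h. IRF1 lies near the line of equal change, and TRIM21, IFIT5 and IFIT3, the 3 genes whose line difference was called, lie above it.

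Among the other pathway genes at 4 h, 6 of 25 tested were higher and 11 lower in HCT116 (median -0.19). In LS180 7 were higher and 12 lower (median -0.24). The share called was 68% in HCT116, against 49.9% over all genes tested (26.2% higher and 23.7% lower). It was 76% in LS180, against 57.7% over all genes tested (26.6% higher and 31.1% lower). IFNLR1, the subunit that makes the type III interferon receptor specific, fell by 1.89 ± 0.09 in HCT116 (adjusted p = 1.9e-12) and by 2.29 ± 0.09 in LS180 (adjusted p = 6.3e-14), and IFNAR2 of the type I receptor fell by 0.93 ± 0.12 in HCT116 (adjusted p = 5.3e-06) and by 0.66 ± 0.12 in LS180 (adjusted p = 9.6e-05). TICAM1, the adaptor of the endosomal dsRNA receptor, fell by 2.67 ± 0.14 in HCT116 (adjusted p = 1.6e-11) and by 3.61 ± 0.17 in LS180 (adjusted p = 2.0e-12). SOCS3 and SOCS1, feedback inhibitors of the receptor kinases, fell by 4.28 ± 0.27 (adjusted p = 1.9e-10) and 3.36 ± 0.42 (adjusted p = 2.6e-06) in HCT116. In LS180 SOCS3 fell by 3.28 ± 0.71 (adjusted p = 0.00063) and SOCS1 was not called (-1.70 ± 1.04, adjusted p = 0.18). IFNAR1, the other subunit of the type I receptor, was not called in HCT116 (0.05) and was 0.14 higher in LS180 (adjusted p = 0.027). IFNGR1 fell by 0.38 ± 0.09 in HCT116 (adjusted p = 0.0016) and by 0.60 ± 0.09 in LS180 (adjusted p = 1.1e-05). IFNGR2 was 0.22 higher in HCT116 (adjusted p = 0.021) and not called in LS180 (0.17), and IL10RB was called in neither (-0.20 in HCT116, -0.14 in LS180). With counts scaled to ribosomal protein genes, the median of all genes at 4 h was -0.33 in HCT116 and -0.54 in LS180. These moves are larger than the rises of IFNAR1 and IFNGR2, which therefore depend on the scale.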

How the data were processed

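RNA was extracted on RNeasy columns and made into stranded libraries, per the labels' protocols, in 22 libraries of 8 groups. The submitters' processing notes name cutadapt, STAR 2.7 and RSEM 1.3.1, and the builds hg38 (siRNA) and hg19 (actinomycin D). The authors deposited RSEM expected counts, effective transcript lengths in bases and TPM per gene. TPM were used as deposited. Expected counts were rounded and tested for each experiment with edgeR 4.0.16 in R 4.3.3 (TMM, filterByExpr by group, quasi-likelihood F test, Benjamini-Hochberg over all 14073 or 17256 genes tested, threshold 0.05). The siRNA fit had 4 libraries and 2 residual degrees of freedom, and the actinomycin D fit 18 libraries and 12. CPM are counts scaled to the TMM-adjusted library size, and a standard error is the log2 fold change divided by the root of F. The rule for names was the called genes averaging at least 1 CPM and, of the other pathway genes the tested receptor genes and up to 4 called with the smallest adjusted p in a comparison. DESeq2 1.42.0 and other settings were alternatives, and the tests were checked on simulated data. In that check the share of false calls was above the 0.05 threshold, most of all in siSTAU1 and the line difference. It was below the threshold for LS180 at 4 h. The simulated data held far fewer changed genes than were called here, so these shares need not hold for the real comparisons. The members and lists were chosen with earlier results of these data known. Deviations of same-numbered HCT116 libraries correlated positively (0.216 to 0.641 over the 9 pairs). Libraries numbered 2 and 3 also correlated across numbers, from -0.0195 to 0.425. The data thus set the libraries numbered 1 apart, and with 3 libraries a group this alone makes numbers 2 and 3 deviate together. Between 2 h and 4 h, libraries 2 and 3 correlated more within a number (0.388 and 0.447) than across numbers (-0.0195 and 0.135). Between 0 h and the later times they did not do so throughout. Whether libraries 2 and 3 pair by number is therefore not settled, and the labels give no pairing. Same-numbered LS180 libraries did not deviate together (-0.389 to 0.265), nor did the siRNA libraries (0.049). Coordinates are from RefSeq GRCh38.p14. IFITM1, IFITM2, IFITM3, USP18 and IRF9 had fractional counts, that is, reads shared with other genes, and their values are uncertain.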

Additional observations from a re-analysis of the deposited data

Results flagged for a closer look

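The change at 4 h of actinomycin D differed between the lines, by a test of the difference itself, for 3 interferon response genes. That is 8.33% of the 36 tested, below the 13.7% called over all genes tested (12.3% higher and 1.33% lower). The HCT116 minus LS180 difference of log2 changes was 0.84 for TRIM21 and 0.76 for IFIT5. It was 1.05 for IFIT3, whose call was lost in 9 of 21 alternatives. No group had the 4 to 10 libraries that a search for a single outlying library needs.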

How the results depend on the processing

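With 2 or 3 libraries a group, small changes of genes near 1 CPM were not detectable at this depth. In siSTAU1, DESeq2 gave 7 higher and 0 lower genes and an effective length offset gave 0 lower. Leaving out 1 library gave 8 to 14 higher (8 without siCTRL library 2) and 0 to 3 lower (0 without siCTRL library 1). In LS180 at 2 h the higher genes numbered 18 with RLE size factors, 19 with no filter, 6 with the effective length offset, 19 with DESeq2, 4 with the total library size, 0 with ribosomal protein scaling and 17 with only the groups compared. Leave-one-out gave 6 to 18 higher (6 without 0 h library 1 or 2 or 2 h library 1, and 18 without 2 h library 2) and 4 to 7 lower. In LS180 at 4 h the total library size gave 5 higher, and ribosomal protein scaling 0 higher and 21 lower. In HCT116 at 2 h the higher genes numbered 10 with RLE, 3 with no filter, 10 with the replicate block, 1 with the total library size, 0 with ribosomal protein scaling and 2 with only the groups compared. The lower genes numbered 4 with no filter, 4 with the replicate block and 5 with ribosomal protein scaling. Leave-one-out gave 1 to 6 higher (1 without 2 h library 2, 2 without 0 h library 2 or 2 h library 3, and 3 without 0 h library 3). In HCT116 at 4 h the higher genes numbered 7 with the total library size, 1 with ribosomal protein scaling and 8 with only the groups compared. The lower genes of the line difference numbered 1 with RLE, no filter, the effective length offset or DESeq2, 2 with libraries 2 and 3 of the LS180 4 h group dropped (leaving 1 library there), and 0 to 8 in leave-one-out (8 without LS180 4 h library 1).

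Signs reversed mostly with ribosomal protein scaling. In LS180 at 2 h these were PARP9 (-0.0067), TAP1 (-0.026) and ISG15 (-0.0096). In LS180 at 4 h they were OAS3 (-0.25), BST2 (-0.0305), IFI44 (-0.0074), PARP9 (-0.32), HERC6 (-0.17), IFITM3 (-0.077), TAP1 (-0.28), STAT2 (-0.14), PARP14 (-0.18), IFITM2 (-0.018), IFITM1 (-0.13), ISG15 (-0.37, and -0.025 with the total library size), PSMB8 (-0.20), SAMD9 (-0.23) and PSMB9 (-0.27). In HCT116 they were PARP14 at 2 h (-0.073) and, at 4 h, IFI35 (-0.018), OAS3 (-0.16), PARP9 (-0.16), HERC6 (-0.14), TAP1 (-0.14), PARP14 (-0.19) and ISG15 (-0.18). IFITM2 between the lines reversed with the effective length offset (-0.84). That scaling moves every gene by a shared amount, and no other cause was tested. The replicate block, where numbers did not pair the libraries, added BST2 (0.42, adjusted p = 0.044) and PSMB8 (0.13, adjusted p = 0.040) in siSTAU1. In LS180 it added OAS3, IFITM2 and PSMB8 at 2 h and IFIT1 and DDX60 at 4 h.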
